A study of Oryza sativa with 4 samples.

Results

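The genes described here are those with at least 1 probe that was seen in rice root hairs on the array labelled Lon-gin and on none of the 3 arrays labelled Don-gin. Other probes of 26 of these genes were seen on a Don-gin array. They were selected on the measured values themselves. A gene with an identifier of the Rice Annotation Project (RAP) was taken when at least 1 of its probes was called well above background on the Lon-gin-labelled array, was not so called on any Don-gin array, and had a scaled log2 signal at least 3 above each Don-gin array. The rule took 106 of 29690 RAP genes, which is 0.357%, through 145 of 41908 RAP probes, which is 0.346%. Because the same values chose these genes, their levels are given as a description and no test of the difference was made.

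Each sample was a root-hair preparation from seminal roots of Oryza sativa seedlings at 3 days after germination, grown on MSO medium, and each was hybridised in 1 colour to a 44K rice oligo array. The labels give the cultivar as Lon-gin for 1 array and as Don-gin for 3 arrays. They name no treatment, and the methods of the study describe every replicate as 'Dongjin' rice, so what sets the Lon-gin-labelled sample apart is known here only from its label. The Lon-gin-labelled array lay on slide 2 with Don-gin replicate 3, whereas Don-gin replicates 1 and 2 lay on slide 1, and the slides were scanned separately. With 1 Lon-gin array there is no spread on that side, and the label cannot be told apart from that 1 preparation and hybridisation.

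A root hair is the long, thin extension of 1 cell of the root surface, and hairs widen the contact with soil through which water and nutrients enter. An oligo array sees a transcript only through the short stretch that a probe matches, so a transcript that lacks or alters that stretch can give no signal at that probe while another probe of the same gene is bright. RAP identifiers carry the chromosome in their first digits and a number that follows the order of loci along it. The members could be described by identifier, source clone and order only, since the identifiers in the files matched 0 of the 29690 RAP genes to the RefSeq table used here (assembly ASM3414082v1), members included, and no probe sequence was at hand.

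The arrays differed in how much they detected. Of all probes, 88.6% were well above background on the Lon-gin-labelled array, against 71.5%, 74.1% and 85.4% on Don-gin replicates 1, 2 and 3. The number of RAP probes seen on 1 array alone was 1632 for Lon-gin, or 3.89% of RAP probes, against 63, 27 and 391 for Don-gin replicates 1, 2 and 3. The part of these differences in the selection was not tested. Over 29686 probes compared, 624, 337 and 388 differed by 3 or more log2 units between Lon-gin and Don-gin replicates 1, 2 and 3. Between Don-gin arrays, 33 did so for replicates 1 and 2, which shared a slide, 452 for 1 and 3, and 338 for 2 and 3. By this count Don-gin arrays of different slides differed about as much as Lon-gin did from replicates 2 and 3. The root-hair gene OsCSLD1 (Os10g0578200), a cellulose synthase-like gene needed for hair growth, had a level of 14.44 on the Lon-gin-labelled array, against 14.22, 14.03 and 14.90 on Don-gin replicates 1, 2 and 3. The Lon-gin value lay inside the Don-gin range, so the root-hair marker was bright under both labels. Of the 106 members, 0 belonged to the 409 root hair-preferential genes listed by the study, which make up 1.38% of all RAP genes and were chosen by the study in part from these arrays. At that share few of 106 genes would be in the list. The study also kept genes with high log2 values, while a member probe had to go unseen on 3 of the 4 arrays, so the 0 says little. In RNA from a whole preparation, fewer cells of a type and less RNA per cell cannot be told apart.

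Levels below are log2 processed signals after each array was brought to a common 75th percentile, and the gap of a probe is its Lon-gin level minus its highest Don-gin level. Over the 145 member probes the lowest, median and highest levels were 4.76, 6.65 and 14.57 on the Lon-gin-labelled array. They were 1.71, 2.08 and 4.27 on Don-gin replicate 1, 1.57, 1.95 and 4.31 on replicate 2, and 0.19, 1.34 and 2.90 on replicate 3. No member probe reached its Lon-gin level on a Don-gin array, as the rule requires. The gaps ran from 3.00 to 12.44 with a median of 4.13. They were concentrated at the low end, since 60 of the 106 genes had a best gap under 4 and 16 had one of at least 6.

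**Figure D1:**
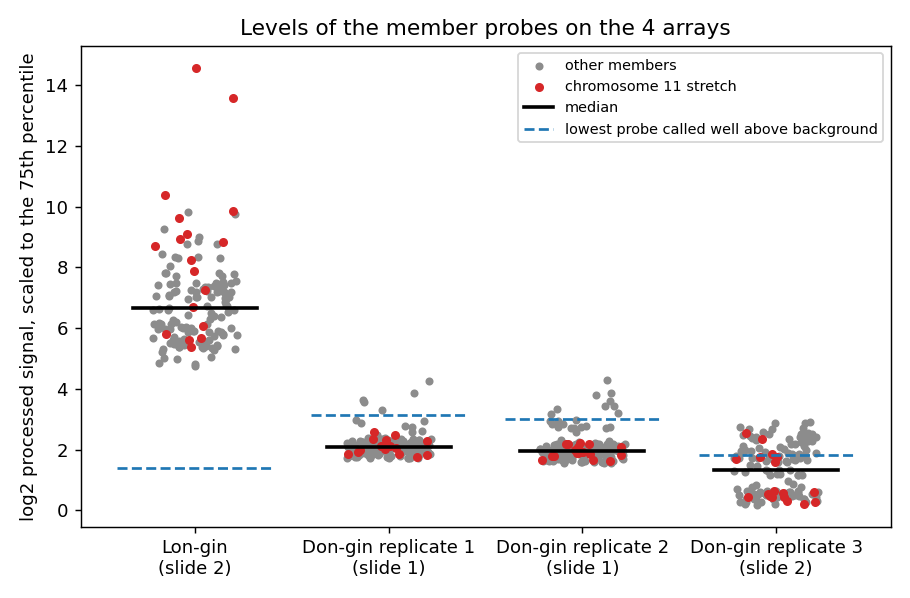
Scaled log2 processed signal of the 145 member probes (vertical axis) with Lon-gin at the left and the 3 Don-gin arrays after it, 1 point per probe. Red points are the 18 member probes of the chromosome 11 stretch, black bars are medians (6.65 on Lon-gin) and dashed lines mark the lowest level of any probe called well above background on that array, above most Don-gin points on slide 1.

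Most Don-gin values of the members lay in the range where the scanner software made no call. Of 435 member values on the Don-gin arrays, 373 were below the lowest level that any probe called well above background had on the same array. That lowest level was 3.15, 3.00 and 1.82 on Don-gin replicates 1, 2 and 3, and 1.41 on the Lon-gin-labelled array. Fold differences are therefore given as bounds, the Lon-gin level against the mean over Don-gin arrays of the higher of that lowest level and the probe's own. The bounds over member probes ran from at least 4.30-fold to at least 3843-fold higher with Lon-gin, with a median of at least 15.1-fold.

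Os11g0615700 had by far the widest separation. Its probe from cDNA AK059521 stood at 14.57 on the Lon-gin-labelled array, against 2.13, 1.93 and 1.76 on Don-gin replicates 1, 2 and 3, a gap of 12.44 and at least 3843-fold higher. Its probe from AK103487 stood at 13.56 on Lon-gin, against 1.82, 1.83 and 0.28 on the Don-gin arrays. Both probes were bright with Lon-gin and near the foot of the range on each Don-gin array. The third probe of the gene, from AB026561, was seen on all 4 arrays at 15.07 on Lon-gin, against 12.01, 11.44 and 13.28 on the Don-gin arrays, a gap of 1.79. Under this identifier 1 of 3 probes was thus above background on the Don-gin arrays. Whether that probe also reads the transcript of another locus was not tested.

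The next genes also lay mostly on chromosome 11. Os11g0513900 (AK101049) had 10.38 on the Lon-gin-labelled array, against 1.93, 1.80 and 2.56 on Don-gin replicates 1, 2 and 3. Os11g0516400 (AK062966) had 9.87 on Lon-gin, against 2.28, 2.08 and 0.61 on the Don-gin arrays. Their gaps were 7.82 and 7.58, and the bounds were at least 178-fold and at least 148-fold. Os11g0539600, known from a gene prediction with EST evidence, had 9.63 on Lon-gin, against 2.35, 2.19 and 1.77 on the Don-gin arrays. Os08g0260800, of the same kind of evidence, had 9.84 on Lon-gin, against 1.96, 2.57 and 1.73 on the Don-gin arrays. The 4 genes share Don-gin values below 2.6 on all 3 arrays, while their gaps, from 7.26 to 7.82, were over 4 log2 units narrower than that of Os11g0615700.

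Among the rest of the 12 widest gaps, Os11g0513000 had 9.09 on Lon-gin, against 2.13, 1.99 and 0.54 on the Don-gin arrays, Os11g0593700 (AK106617) had 8.71 on Lon-gin, against 1.85, 1.66 and 1.68, and Os11g0588600 (AK066312) had 8.93 on Lon-gin, against 2.59, 2.20 and 2.36. Their gaps were 6.95, 6.86 and 6.35. Os11g0545300, Os10g0150400, Os10g0150600 and Os05g0190500, which complete the 12, have several probes each and are described with them. Of the 12 genes, 8 lay on chromosome 11.

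**Figure D2:**
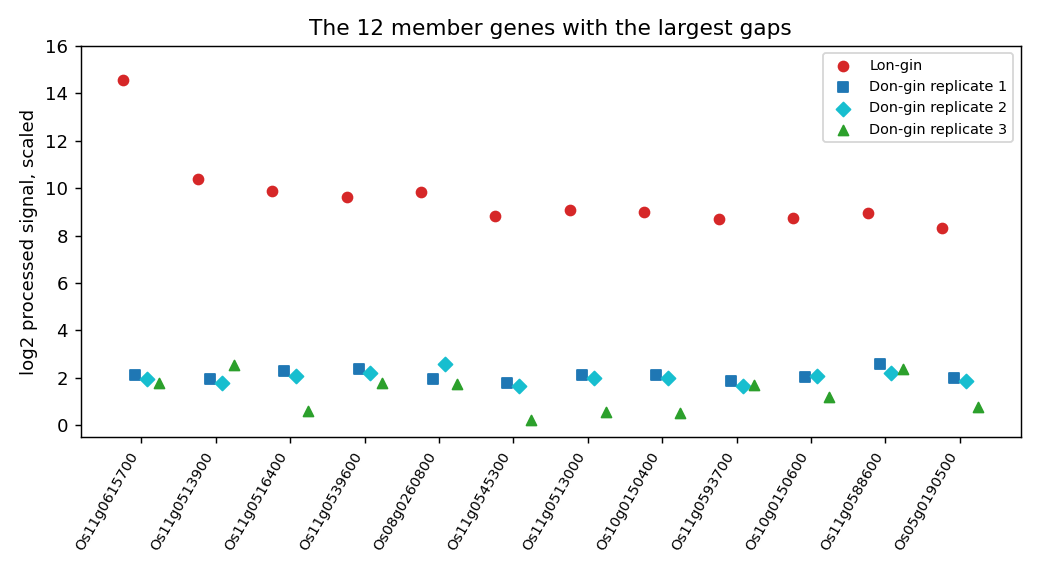
Scaled log2 processed signal (vertical axis) of the 12 member genes with the widest gaps, each by its probe with the widest gap, with the Lon-gin-labelled array in red and the 3 Don-gin arrays in blue, cyan and green. All Lon-gin points lie at 8.32 or higher and all Don-gin points at 2.59 or lower.

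The members were probed much like the rest of the array. Probes from full-length cDNAs that cover coding sequence, with or without the 3′ UTR, made up 76.6% of the 145 member probes, against 74.5% of all RAP probes. Predictions with EST evidence made up 17.2% of member probes, against 16.6% of all. Genes with 2 or more probes were more frequent, 40.6% of members against 26.3% of all RAP genes, and a gene with more probes had more chances to be taken. All 145 member probes had 1 spot. The spots were spread from row 5 to row 531 of 532 and from column 1 to column 85 of 85, and no member spot touched another. For 4 probes that 1 spot was marked as an outlier on the Lon-gin-labelled array, namely those of Os06g0119600, Os09g0268300, Os10g0436800 and Os08g0148500, with gaps of 5.34, 5.24, 3.96 and 3.39. With every outlier spot left out, 101 of the 106 genes stayed.

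For the 43 genes with more than 1 probe, the other probes give a second reading under the same RAP identifier, though a few probes carry the transcript name of another locus. In 8 of them every probe met the rule. In another 9, some probes missed the rule but none was well above background on a Don-gin array. In the remaining 26 genes another probe was well above background on at least 1 Don-gin array. The number of genes not seen on any Don-gin array through any probe was 80 of the 106, which includes the 63 genes with 1 probe. Of the 59 other probes, 11 were seen on Lon-gin alone, or 18.6%, beside the 3.89% of all RAP probes. A further 29 were seen on Lon-gin and on 1 or 2 Don-gin arrays, 11 on all 4 arrays and 8 on none. These probes belong to genes picked for a high Lon-gin signal, so the shares are descriptions. Without Don-gin replicate 3 the share seen on Lon-gin alone was 31.2% of 234 other probes, but the matching share of all RAP probes was not counted.

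Os10g0150400, Os10g0150600 and Os10g0150700 are neighbours with 16 member probes in all. The array holds no other gene between them. All 4 probes of Os10g0150400 met the rule, with gaps from 5.91 to 6.89, and all 6 of Os10g0150600, with gaps from 4.13 to 6.69. Of the 8 probes of Os10g0150700, 6 met it, with gaps from 4.19 to 5.66, and the other 2, from AK061567 and AK104765, were not above background on any array. The probe of Os10g0150400 from AB055842 had 8.99 on Lon-gin, against 2.10, 1.97 and 0.53 on Don-gin replicates 1, 2 and 3. The probe of Os10g0150600 from AB071178 had 8.75 on Lon-gin, against 2.05, 2.06 and 1.18 on the Don-gin arrays. The 16 member probes of the 3 genes had Don-gin levels between 0.39 and 2.90, all below their Lon-gin levels of 6.36 to 8.99. Whether probes of these neighbours share sequence, and so read each other's transcripts, was not tested.

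Os04g0644400 had 5 probes, all members, with gaps from 4.83 to 5.46. Its probe from AK071989 had 7.47 on Lon-gin, against 2.02, 1.88 and 1.59 on the Don-gin arrays. Os08g0460000 had 4 member probes with gaps from 4.84 to 5.76, and 1 other probe, from AK065284, with 7.73 on Lon-gin, against 5.11, 1.61 and 0.37 on Don-gin replicates 1, 2 and 3. That other probe was above background on Don-gin replicate 1 alone among the Don-gin arrays. Os05g0190500 had 3 member probes, the widest gap being 6.33 for AK104246 with 8.32 on Lon-gin, against 1.99, 1.84 and 0.78 on the Don-gin arrays. Its probe from AK104519 had 8.37 on Lon-gin, against 6.54, 4.06 and 0.34 on the Don-gin arrays, so slide 1 showed it and Don-gin replicate 3 did not.

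In a few genes the other probes were seen on every array. Os11g0545300 entered through a single probe to the UTR of AK099478, which had 8.83 on Lon-gin, against 1.76, 1.63 and 0.21 on the Don-gin arrays, a gap of 7.07. Its 5 other probes were well above background on all 4 arrays, with gaps of only 0.57 to 0.87. The one from AY154916 had 11.89 on Lon-gin, against 10.30, 9.58 and 11.02 on Don-gin replicates 1, 2 and 3. For this gene the wide separation of the arrays was seen at 1 of 6 probes.

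Os11g0115400 had 7 probes, of which 2 met the rule with gaps of 3.94 and 3.62. The other 5 were above background on 2 or 3 Don-gin arrays, and all had gaps above 3, from 3.65 to 5.01. Its probe from AF017361 had 11.92 on Lon-gin, against 5.53, 7.80 and 7.48 on the Don-gin arrays. Here every probe was higher with Lon-gin, whether or not it was seen with Don-gin. The transcript name is Os11t0115350-01 for its probes from AY327042, AF017359 and AK058896 but Os11t0115400-00 for those from AF017361 and AY335485. The probes under this identifier thus carry names of different loci. Os09g0268300 went the other way. Its member probe from AK107400, whose Lon-gin spot was an outlier, had 7.03 on Lon-gin, against 1.79, 1.62 and 1.32, while its probe from AK067908 had 9.69 on Lon-gin, against 10.14, 10.89 and 11.28 on the Don-gin arrays. Over all 59 other probes, 48 were highest on the Lon-gin-labelled array, or 81.4%, with a median gap of 1.83, beside 30.3% of all RAP probes with a median gap of -0.32.

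**Figure D3:**
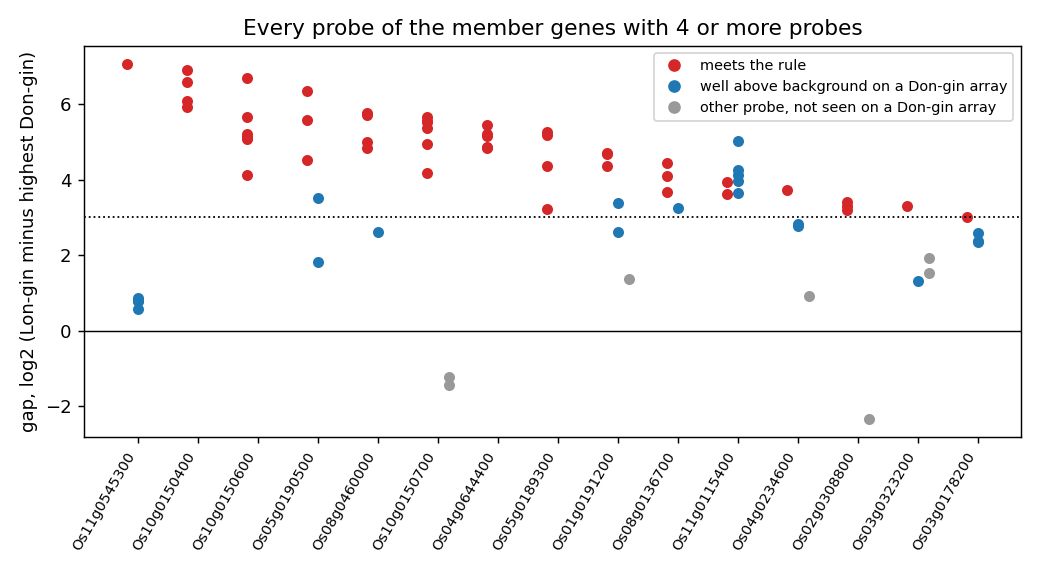
Gap of each probe (vertical axis, log2, Lon-gin minus the highest Don-gin array) for the member genes with 4 or more probes. Red points met the rule, blue points were well above background on a Don-gin array, grey points were not; the dotted line is the gap of 3. The 5 blue points of Os11g0545300 lie between 0.57 and 0.87, and those of Os11g0115400 between 3.65 and 5.01.

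Members were found on all 12 chromosomes but not evenly. Chromosome 11 had 20 of its 1824 array genes among them, or 1.1%, and chromosome 10 had 11 of 1587, or 0.693%. Chromosome 1 had 4 of 4169, or 0.0959%, the lowest share, and chromosome 5 had 3 of 2367, or 0.127%. Chromosome 8 had 10 of 2025, or 0.494%, chromosome 4 had 12 of 2639, or 0.455%, and chromosome 2 had 14 of 3355, or 0.417%. The share over all RAP genes was 0.357%. The median best gap was 5.57 on chromosome 11, 5.27 on chromosome 5 and 5.14 on chromosome 9, and lay between 3.22 and 4.10 on the others.

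Of the 20 members of chromosome 11, 17 fell between Os11g0501000 and Os11g0615700, and 8 of the 12 widest gaps came from there. This stretch was delimited after the values were seen, by its outermost members. It holds 387 array genes, 21.2% of those of the chromosome, and 4.39% of them were members, against 0.304% of all other RAP genes and 0.209% of the chromosome 11 genes outside it. The best gaps of its members had a median of 6.23, against 3.75 for members elsewhere. Whatever their gap, 38 of the 505 probes of the stretch were seen on Lon-gin alone, or 7.52%. That share was 4.67% on the rest of chromosome 11 and 3.85% of all other RAP probes. Of the 505 probes of the stretch, 275 were seen on all 4 arrays, or 54.5%. The matching shares were 60.6% on the rest of chromosome 11 and 70.8% of all other RAP probes. Of these 275, 4 had Lon-gin at least 3 above each Don-gin array, or 1.45%, against 0.188% of all other RAP probes seen on all 4 arrays, and 2 had Lon-gin at least 3 below, or 0.727%, against 0.171%. On the rest of chromosome 11, 4 of 1142 such probes were that far above, or 0.350%, and 5 that far below, or 0.438%. Without Don-gin replicate 3 the count of members in the stretch was 44 of 529. Against that array alone, the one on the slide of the Lon-gin-labelled array, it was 28 of 423, beside 17 of 106 as reported.

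The same rule turned round, with a probe seen on all 3 Don-gin arrays, absent from the Lon-gin-labelled array and at least 3 lower there, found 36 genes, or 0.121%, of which 10 were on chromosome 6 and 3 on chromosome 11. Chromosomes 6 and 11 hold 2391 and 1824 of the 29690 RAP genes. Of the 36, 0 lay in the stretch, which holds only 1.3% of all RAP genes, so that 0 says little about the stretch.

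**Figure D4:**
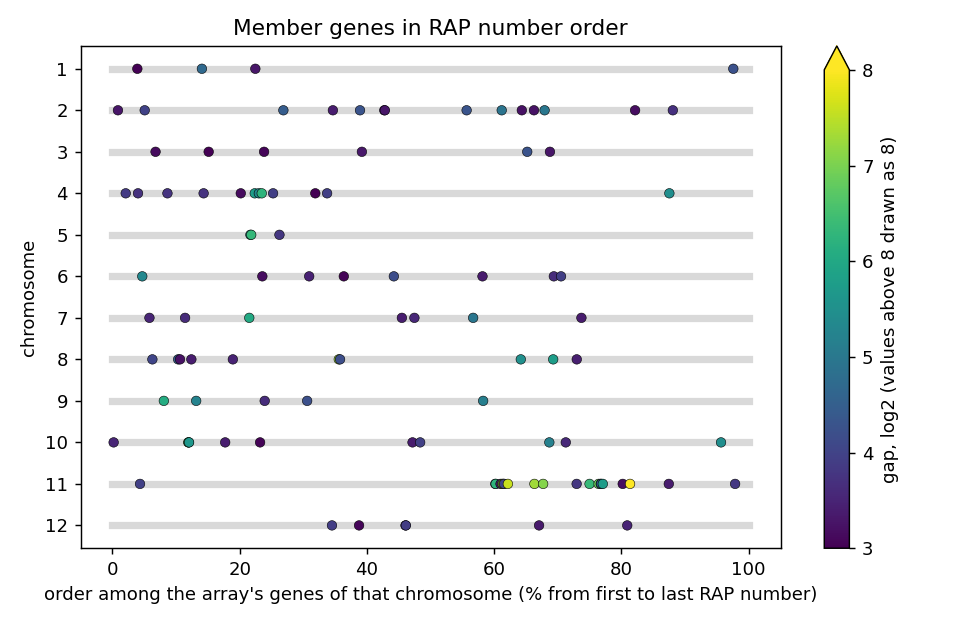
The 106 member genes by chromosome (vertical axis) and by their order among the array's genes of that chromosome in RAP number (horizontal axis, %), coloured by best gap in log2. The members of chromosome 11 gather between about 60% and 81% of its genes, where the widest gaps also lie.

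Close neighbours were counted by RAP number, since gene coordinates were not used here. Within 5000 numbers of another member lay 26 of the 106 genes, or 24.5%, beside 13.0% of all RAP genes with a member that near. Of the 26, 11 belonged to the chromosome 11 stretch. Outside the stretch the shares were 16.9% of members and 12.3% of all RAP genes. Without Don-gin replicate 3 the count of near members was 340 of 529, but the share of all RAP genes near a member of that longer list was not counted. The 26 genes formed 10 runs. The longest, from Os11g0512000 to Os11g0516400, held 5 members among 22 array genes, with best gaps from 3.29 to 7.82. The run from Os11g0593700 to Os11g0596200 held 4 members among 13 array genes, with best gaps from 4.39 to 6.86.

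Within those runs, Os11g0596200 had 7.89 on the Lon-gin-labelled array, against 2.14, 1.94 and 1.58 on Don-gin replicates 1, 2 and 3. Os11g0501500 (AK109874), beside the member Os11g0501000, had 8.24 on Lon-gin, against 2.01, 1.88 and 0.45 on the Don-gin arrays. Their gaps were 5.75 and 6.23, and the rule lets no member overlap the Don-gin values. On chromosome 5, Os05g0189300 had 4 probes, all members, with gaps from 3.22 to 5.27, and lay 4 array genes from Os05g0190500, counting both. On chromosome 8, Os08g0262500 followed Os08g0260800 with 2 member probes and gaps of 3.87 and 4.17. Members that share an identifier were rare: the files give Os06g0607400 and Os09g0244100, which lie on different chromosomes, the same transcript accession.

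At the threshold, the members with the narrowest gaps were AK104671 of Os01g0123900 at 3.00, AK069040 of Os10g0430200 at 3.01 and AK110580 of Os04g0400800 at 3.02. Just outside lay Os11g0620300 and Os02g0775600, whose gaps fell short of 3 only beyond the second decimal, and Os10g0463200 at 2.99. Os01g0123900 had 4.82 on Lon-gin, against 1.82, 1.68 and 0.46 on the Don-gin arrays, and Os11g0620300 had 4.79 on Lon-gin, against 1.80, 1.62 and 0.88. Nothing in these values separates the genes on either side of 3.

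How many genes met the rule depended on how the signals were treated. Without scaling 254 did, with quantile normalization 65, with the authors' log2 values 13 and with a normexp background correction followed by quantile normalization 2, and all 13 and both of the 2 were among the 106. Leaving out Don-gin replicate 3 gave 529 genes, and setting Lon-gin against that array alone gave 423. The chromosome 11 stretch supplied 20 of the 254 genes, 15 of the 65, 8 of the 13, both of the 2, 44 of the 529 and 28 of the 423.

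**Figure D5:**
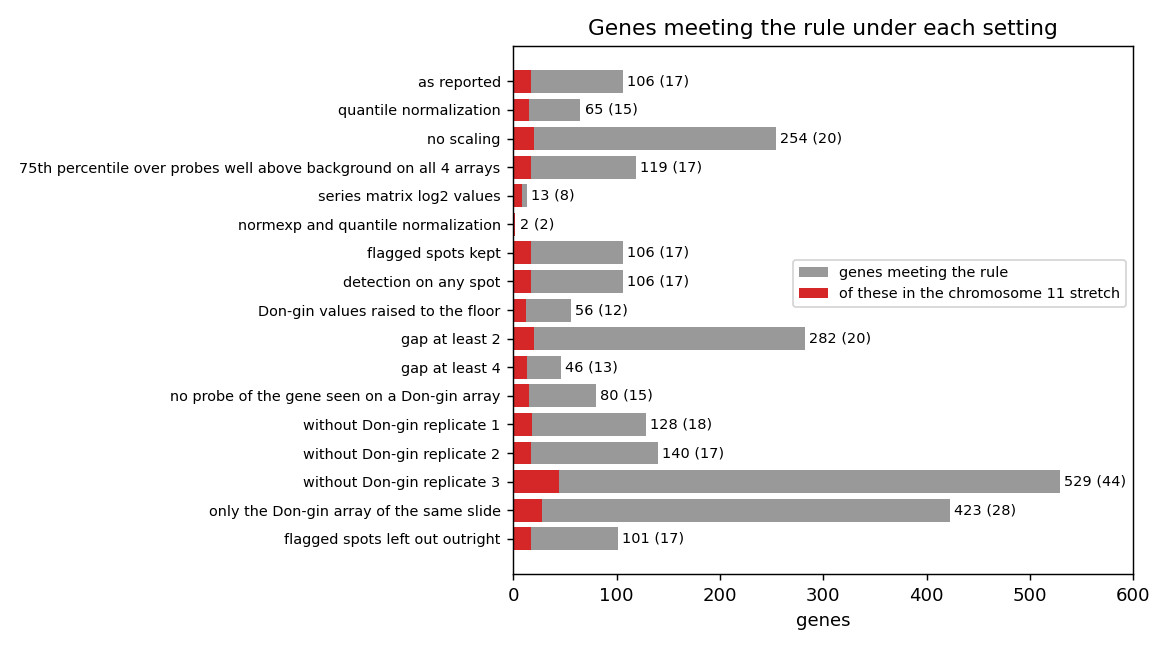
Number of genes meeting the rule (horizontal axis) under each setting, with those of the chromosome 11 stretch in red and both counts printed at the bar. As reported there were 106 genes with 17 in the stretch, with 20 of 254 in the stretch without scaling and 8 of 13 with the authors' log2 values.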

How the data were processed

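The 4 root-hair samples were measured on 1-colour Agilent arrays, 1 labelled Lon-gin and 3 labelled Don-gin. Spot intensity was deposited as Feature Extraction wrote it (11.5.1.1 per the file headers, 9.1 by the submitters' processing notes). A second table, of log2 values deposited by the authors, follows the order of the unsubtracted median spot signal, normalized by a method the study cites without describing it. The median of those values was 7.48 on both arrays of slide 1 and 8.19 on both arrays of slide 2. They were used with no further scaling, so that difference between slides remained in them. Control spots were left out, and 42477 probes remained. Spots marked as outliers were dropped if an unmarked spot of that probe remained (126 values). Log2 processed signals were averaged per probe, the 75th percentile of each array was subtracted and the mean of the 4 percentiles, 11.15, was added. A probe was seen if at least 0.5 of its kept spots were well above background. No spot was saturated. The number of arrays limits the precision.

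The rule was tested on simulated data. The simulated arrays shared the same noise and detection floor, so differences between slides or in detection, as seen here, were not covered. Genes named were the 12 with the widest gaps, up to 10 near another member, up to 8 with several probes, up to 5 with another probe seen on a Don-gin array, and the 3 on each side of the threshold; others singled out were chosen after their values were seen. Members and lists were chosen with earlier results of these data known. Python 3.11.15, numpy 2.4.6, pandas 2.3.3 and R 4.3.3 with limma 3.58.1 were used. Alternatives changed the scaling, the signal, the background correction, the spots kept, the floor, the gap and the Don-gin arrays used. No gene annotation was used, so lists of genes by function were not described, and OsEXPA17 and OsBOR1 were not matched to a RAP identifier. Of the deposited columns of per-sample values, all were assigned.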

Additional observations from a re-analysis of the deposited data

How the results depend on the processing

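The 106 genes became 65 with quantile normalization, 254 without scaling, 13 with the authors' log2 values, 2 with normexp and quantile normalization, 56 with Don-gin values raised to the lowest level well above background, 282 with a gap of at least 2, 46 with a gap of at least 4, and 423 against the Don-gin array of the same slide alone. Leaving out 1 Don-gin array gave 128 to 529, the highest without replicate 3. The normexp setting adds an offset of 50 to every signal and the authors' log2 values follow unsubtracted signals, which narrows gaps at low signal by construction. The median over all probes of Lon-gin minus the Don-gin mean was 0.07 as reported, 0.94 without scaling and -0.12 with quantile normalization. For the other settings the cause was not tested.

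The 26 members within 5000 RAP numbers of another became 17, 106, 5, 0, 14, 129, 15 and 235 under those settings in the same order, 35 to 340 with 1 Don-gin array left out, and 16 within 1000 or 41 within 10000 numbers. Only for the reported list was the share of all RAP genes near a member counted, so these counts have no base to be set against. The 17 of 106 members in the chromosome 11 stretch became 8 of 13 with the authors' log2 values and 2 of 2 with normexp and quantile normalization. They became 28 of 423 against the same-slide array, and 17 of 140 to 44 of 529 with 1 Don-gin array left out. The share of other probes seen on Lon-gin alone, 18.6%, became 50% of 12 probes with the authors' log2 values, 0% of 1 probe with normexp and quantile normalization, 46.2% of 13 probes where no probe of the gene was seen with Don-gin, and 21.2% to 31.2% with 1 Don-gin array left out. Where no probe of the gene was seen with Don-gin, another probe could be seen only on Lon-gin or on no array. A higher share is thus largely built into that setting, and its 46.2% says little. With an array left out, the matching share of all RAP probes was not counted. The gap of each of the 24 named genes stayed above 0 under the 5 other scalings and signals, from 0.21 for Os01g0123900 to 13.12 for Os11g0615700. They were named for gaps near or above the threshold on these same arrays, so a gap above 0 says little. All 24 gaps narrowed by at least the probe's standard deviation over Don-gin arrays with the authors' log2 values, and likewise with normexp and quantile normalization. The RAP-number distances, the counts in the stretch and the removal of every outlier spot were added after seeing the data, and distances in bases were not run. No paired analysis was possible because Lon-gin had 1 array and no comparison was tested.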
